A study of Mus musculus with 6 samples.

Results

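The Bcl2 family genes described here are 10 members that were chosen by symbol from the 25631 genes listed in the expression table. They are the pro-survival genes Bcl2, Bcl2l1, Bcl2l10 and Mcl1, the effectors Bax and Bak1, and the BH3-only genes Bbc3, Pmaip1, Bid and Bad. The rule that picks them uses symbols and no expression value. RNA was sequenced from oocytes of 14-month-old ICR mice, punctured out of large antral follicles after an injection of equine chorionic gonadotropin, in 3 libraries of a control group and 3 of an aminophylline group. The aminophylline mice drank 4 mM aminophylline, a theophylline derivative that inhibits phosphodiesterases, for 1 week and then water only for 3 weeks, whereas the control mice were untreated and their libraries carry the label Aged. Both groups were naturally aged, no young oocytes are compared here, and how many mice and oocytes went into a library is not stated in the sources used here. The comparison asks whether the transcripts of the family differed in aged oocytes after aminophylline.

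Proteins of the Bcl2 family decide whether the outer mitochondrial membrane is opened during apoptosis. The effectors BAX and BAK form the pores through which cytochrome c leaves the mitochondria, the pro-survival members bind and restrain them, and the BH3-only members, which are made or activated by damage, withdrawal of growth factors or stress, either occupy the pro-survival members or switch on the effectors. In the ovary the family is best known for the loss of oocytes from the reserve, where TAp63 in oocytes with DNA damage acts through the BH3-only genes Bbc3 (PUMA) and Pmaip1 (NOXA), and for the survival of oocytes that depend on MCL1. Bcl2l10 (also called Diva or Boo) is known as an oocyte gene and has been described as pro-survival and as pro-death in different systems, so sums of the members are given below with and without it.

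The pro-survival members and the effectors have several domains in common, of which the BH1 domain lines the groove that takes up a BH3 helix. The coding stretches around the core of this domain are shown because they set the multidomain members apart from the BH3-only members, and Bcl2l10 from the other multidomain members. The letters TGGGGNCGN and TGGGGNAGN were searched in frame on the coding strand, and these forms cannot overlap at the same position. One of them was found in 5 of 6 multidomain members, in 0 of 4 BH3-only members, and in 3.68% of 21562 mouse coding sequences. The 51 bases around each match lie in 1 exon of the gene, and capitals mark the match. The sequences are from GENCODE M21 (GRCm38). The stretches are chr1:106712428-106712478 (minus strand) for Bcl2, chr2:152829550-152829600 (minus) for Bcl2l1, chr3:95659835-95659885 (plus) for Mcl1, chr7:45465207-45465257 (minus) for Bax and chr17:27021293-27021343 (minus) for Bak1.
Bcl2: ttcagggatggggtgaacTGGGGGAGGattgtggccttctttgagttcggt
Bcl2l1: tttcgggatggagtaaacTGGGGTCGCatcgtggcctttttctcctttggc
Mcl1: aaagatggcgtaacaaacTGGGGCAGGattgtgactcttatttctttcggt
Bax: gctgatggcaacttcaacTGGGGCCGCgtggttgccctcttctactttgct
Bak1: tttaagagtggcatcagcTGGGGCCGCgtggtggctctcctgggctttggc

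These 5 stretches shared 51.0% to 70.6% of their bases in pairs. The coding sequence of Bcl2l10 held 0 matches. Its most similar in-frame window, chr9:75348143-75348193 (plus strand), had a mean identity of 49.4% with the other stretches, the next best window 43.1%, and capitals mark the bases at the place of the match.
Bcl2l10: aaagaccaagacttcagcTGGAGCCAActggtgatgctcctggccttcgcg

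Levels are in FPKM, the fragments counted on a gene divided by its length and by the library's total, and the whole numbers of reads behind them were recovered from the values. The libraries held 14112341 to 33641283 reads, with the lowest depth in control 2. Oocyte markers were high in every library, with a summed FPKM of 8810 to 13600 in control and 11300 to 13000 in aminophylline oocytes for 10 of 10 listed markers. Granulosa and cumulus markers summed to at most 23.6 in control and 22.5 in aminophylline oocytes. Control 1 stood apart: its macrophage markers summed to 199 against 81.0 to 102 in the other 5 libraries. It was the library with Lyz2 at 66.4 and C1qc at 14.8 (at most 0.573 and 0 elsewhere). Of the oocyte markers, Gdf9 (1518 against 2845 to 3663), Zp3, Nlrp5 and Zar1 were lowest in control 1. Bmp15, Zp1, Zp2, Ddx4, Dazl and Oosp1 were not lowest there. C1qb made up most of the macrophage sum of the other libraries. It was at 79.2 to 99.8 there and lowest in control 1, at 72.3, so it did not follow Lyz2 and C1qc. Whether these transcripts had a part in any difference between the groups was not tested, and values without control 1 are given where it moved them most. As in any bulk measurement, fewer cells of a type and less RNA per cell cannot be told apart.

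Bcl2l10 was by far the most abundant member. Its mean over the 6 libraries was 6205 FPKM, rank 6 of the 25631 listed genes, and it held 0.568% to 0.907% of all reads of a library. It made up 99.5% to 99.8% of the summed FPKM of all 10 members. The mean of the next member, Bcl2l1, was 680-fold lower.

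**Figure D1:**
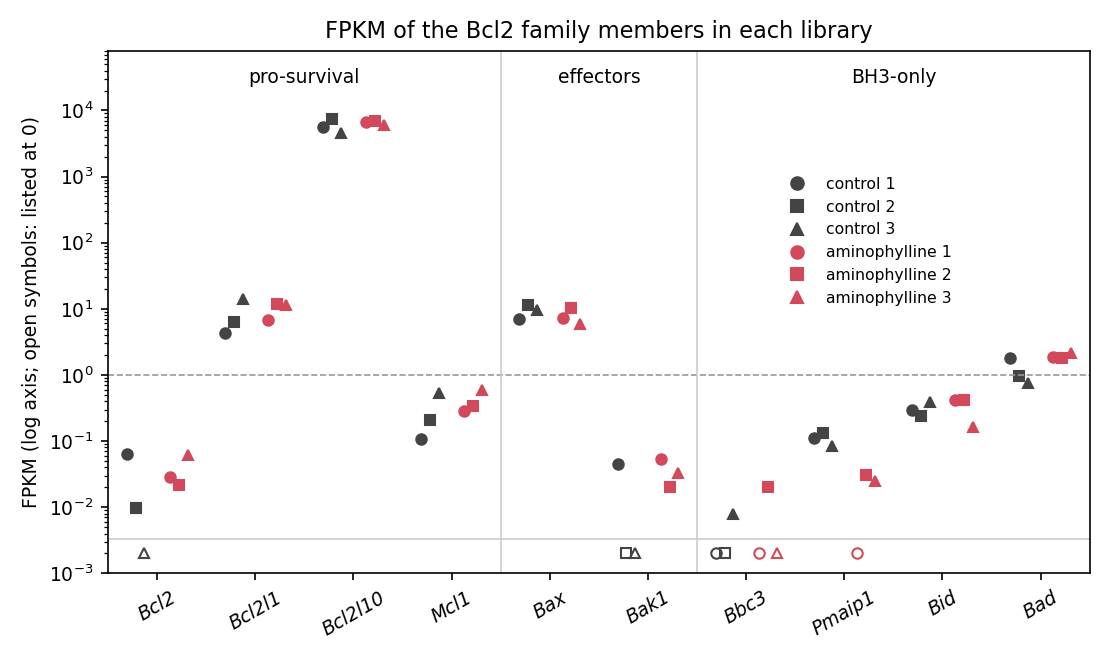
FPKM (log axis) of each of the 10 members in each of the 6 libraries, with control in grey and aminophylline in red, the replicate number as the symbol shape, and open symbols under the grey line for values listed at 0. The dashed line marks an FPKM of 1. Bcl2l10 lies at 4628 or higher in every library, Bcl2l1 and Bax lie between 4.31 and 13.9, and Bcl2, Bak1, Bbc3 and Pmaip1 lie under 0.2.

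The order of the mean levels was Bcl2l10, Bcl2l1, Bax, Bad, Mcl1, Bid, Pmaip1, Bcl2, Bak1 and Bbc3. The ranges over the 6 libraries did not overlap between Bcl2l10 and Bcl2l1, between Bax and Bad, between Bad and Mcl1, or between Bid and Pmaip1. Bcl2l1 and Bax were not separated, since Bcl2l1 was the higher in 3 of 6 libraries, but with GENCODE exon lengths (1576 bases for Bax in place of 940) it was the higher in 6 of 6, at means of 11.0 and 5.10. Mcl1 and Bid were not separated either, and nor were the neighbours among Pmaip1, Bcl2, Bak1 and Bbc3. The place of Mcl1 rests on the length used as well. The FPKM values imply a length of 8725 bases for Mcl1, more than the 6236 bases that its whole RefSeq gene spans. Its deposited FPKM, and the sums below that include it, are therefore uncertain in level. With the 3418 bases of its GENCODE exons its mean would be 0.877 in place of 0.344, close to that of Bad with its own GENCODE length (0.921).

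Only 4 of the 10 members, Bcl2l10, Bcl2l1, Bax and Bad, reached an FPKM of 1 in 3 or more of the 6 libraries and entered the test, which was limma's moderated linear model on log2(FPKM + 1) across 10340 genes. Of these 4, 0 passed at an adjusted p under 0.05 and 0 at an unadjusted p under 0.05. Over all tested genes these shares were 0% and 7.25% (750 genes), with 4.41% higher and 2.84% lower after aminophylline. limma's voom on the recovered reads also put 0 of the 4 under an unadjusted p of 0.05. Groups without overlap were seen for 1 of the 4 members, Bad, and for 12.5% of tested genes (7.51% higher and 4.96% lower after aminophylline). Bad entered the test through its 3 aminophylline libraries and control 1, as controls 2 and 3 were under an FPKM of 1. The filter and the lack of overlap therefore draw on the same values of Bad. Over the 10340 tested genes the log2 fold changes had a median of 0.0954, against which the values of the members are to be read.

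**Figure D2:**
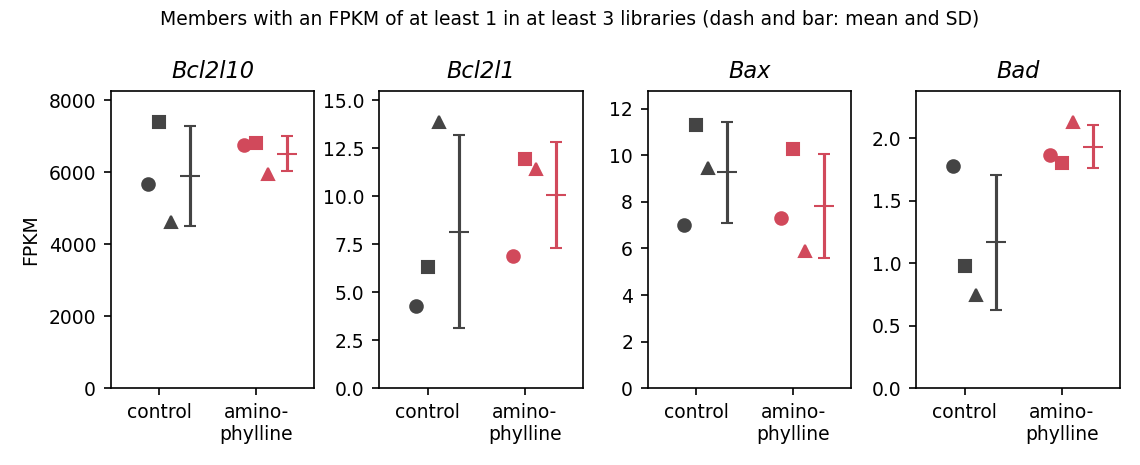
FPKM (linear axis from 0, a separate scale for each gene) of the 4 tested members in the 3 control (grey) and 3 aminophylline (red) libraries, with the mean and SD of each group beside the points. The groups overlap for Bcl2l10, Bcl2l1 and Bax, and all 3 aminophylline values of Bad, 1.80 to 2.13, lie above the highest control value, 1.78.

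Among the pro-survival members, Bcl2l10 on chromosome 9 was measured at 5677, 7386 and 4628 FPKM in controls 1, 2 and 3. It was at 6771, 6812 and 5953 FPKM in aminophylline libraries 1, 2 and 3. The aminophylline values lay inside the range of the controls and closer together, with a mean of 6512 ± 484 (SD, n = 3) compared with 5897 ± 1392 (SD, n = 3). The coefficient of variation was 7.44% against 23.6%, where the medians over all tested genes were 16.2% and 25.6%. The log2 fold change was 0.17 (SE 0.19, 95% interval -0.26 to 0.59, limma adjusted p = 0.817). It ran from 0.01 without control 3 to 0.34 without control 2, and only without control 2 was the unadjusted p under 0.05 (limma adjusted p = 0.306), as it was for 15.6% of all tested genes in that fit.

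Bcl2l1 encodes BCL-XL, the pro-survival member that binds BAX, BAK and BAD. Its FPKM was 4.31, 6.31 and 13.9 in controls 1 to 3 and 6.89, 11.9 and 11.4 in aminophylline libraries 1 to 3. Control 3 was the highest and control 1 the lowest of all 6 libraries, and the aminophylline values lay inside the control range. The means were 8.15 ± 5.03 in control and 10.1 ± 2.77 in aminophylline oocytes (SD, n = 3 each). The log2 fold change was 0.38 (SE 0.35, 95% interval -0.40 to 1.16, limma adjusted p = 0.781). The size turned on single libraries. It was 0.80 without control 3 (limma adjusted p = 0.297) and 0.73 with library weights (adjusted p = 0.221), both with an unadjusted p under 0.05 in fits in which 14.3% and 19.4% of all tested genes had one, and 0.06 without control 1, the library with macrophage transcripts (limma adjusted p = 0.993).

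The other pro-survival members were low. Mcl1, whose short-lived protein restrains BAK, had an FPKM of 0.106, 0.211 and 0.530 in controls 1 to 3 and 0.288, 0.342 and 0.585 in aminophylline libraries 1 to 3, from 26 to 156 reads per library. Control 3 and aminophylline 3 were the highest, and the groups overlapped. The aminophylline library was the higher in 3 of 3 same-numbered pairs, a pairing that rests on the label numbers alone. The mean was 1.44-fold higher in aminophylline oocytes (0.405 ± 0.158 compared with 0.282 ± 0.221, SD, n = 3 each), and the difference was smaller than the SD of the control group. On the log2 scale the ratio of the means was 0.52, which was 0.13 without control 1 and 1.35 without control 3. Bcl2, the founding member of the family, had 16, 1 and 0 reads in controls 1 to 3 and 6, 4 and 14 reads in aminophylline libraries 1 to 3. All but 1 of the 17 control reads came from control 1, so that without it the log2 ratio of the mean FPKM would be 2.97 in place of 0.61, on 1 read in the remaining controls. At these counts a difference in Bcl2 was not detectable.

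Among the effectors, Bax was the one that was expressed at a measurable level. Its FPKM was 7.02, 11.3 and 9.47 in controls 1 to 3 and 7.31, 10.3 and 5.91 in aminophylline libraries 1 to 3. Aminophylline 3 was the lowest and control 2 the highest, and the other 4 values were interleaved. The means were 9.26 ± 2.15 in control and 7.83 ± 2.22 in aminophylline oocytes (SD, n = 3 each). The log2 fold change was -0.23 (SE 0.25, 95% interval -0.78 to 0.33, limma adjusted p = 0.813), and it took the opposite sign, 0.07, when the libraries were weighted by their quality. Without control 1 it was -0.39 (limma adjusted p = 0.984). Bax held 71.6% to 89.4% of the summed FPKM of the 6 pro-death members. Bak1, the second effector, had 3, 0 and 0 reads in controls and 3, 1 and 2 reads in aminophylline libraries, none of them over the floor of 3 reads.

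Bad encodes the BH3-only protein that neutralises BCL-XL unless it is phosphorylated, by AKT or protein kinase A among others, and held by 14-3-3 proteins. Its FPKM was 1.78, 0.978 and 0.744 in controls 1 to 3 and 1.86, 1.80 and 2.13 in aminophylline libraries 1 to 3, from 21 to 99 reads. All 3 aminophylline libraries were above all 3 controls, although control 1 was only just below aminophylline 2. The mean was 1.66-fold higher after aminophylline (1.17 ± 0.542 compared with 1.93 ± 0.172 FPKM, SD, n = 3 each). The log2 fold change on log2(FPKM + 1) was 0.46 (SE 0.22, 95% interval -0.02 to 0.94, limma adjusted p = 0.688). The exact permutation test gave p = 0.1 (two-sided), the smallest value that 3 against 3 libraries allow. In the fit without the filter on low values, the log2 fold change of Bad was again 0.46 (limma adjusted p = 0.836).

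The difference in Bad was larger than the SD within either group and did not pass the test across genes. With the replicate number as a block the unadjusted p was under 0.05 (limma adjusted p = 0.299), in a fit in which 14.2% of all tested genes did so. Without control 1 the log2 fold change was 0.66 and the unadjusted p was also under 0.05 (limma adjusted p = 0.984), in a fit in which 3.57% of all tested genes were. The groups overlapped once the libraries were rescaled to a common sum, quantile normalized or centred on their medians, with log2 fold changes of 0.54, 0.33 and 0.38. The exons of Bad share 524 bases with Gpr137 on the opposite strand, and the strand setting of the counting is not given in the sources used here. Gpr137 was at 0.950, 0.990 and 1.62 FPKM in controls and 1.27, 3.43 and 2.34 in aminophylline libraries, so reads of the shared bases cannot be told apart.

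Of the other BH3-only members, Pmaip1 (NOXA, which binds MCL1) had few reads but no overlap between the groups. Controls 1 to 3 had 10, 5 and 7 reads (0.112, 0.133 and 0.0829 FPKM), and aminophylline libraries 1 to 3 had 0, 2 and 2 reads (0, 0.0304 and 0.0246 FPKM). All controls were over the floor of 3 reads and all aminophylline libraries under it. Pooled over each group, 22 reads stood against 4, a ratio of control to aminophylline per read sequenced of 5.78 (95% exact interval 1.96 to 23.1, counting error only). Among the genes that were above 0 in any library but did not pass the filter, 7.32% of 15291 had groups without overlap and 2.11% had them lower after aminophylline. These shares count genes with reads in fewer than 3 libraries, which cannot have groups without overlap. The share among genes with as many reads as Pmaip1 was not computed. The exact permutation test gave p = 0.1, again the smallest possible. When limma was fitted to all 25631 genes without the filter, Pmaip1 had a limma adjusted p of 0.837, and it was the only member with an unadjusted p under 0.05 in that fit, as had 5.48% of all genes.

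Bid, which links the death receptor pathway to the mitochondria, had an FPKM of 0.297, 0.236 and 0.393 in controls 1 to 3 and 0.413, 0.420 and 0.163 in aminophylline libraries 1 to 3, from 8 to 30 reads. Aminophylline 3 was the lowest and aminophylline 2 the highest of all 6, so the groups overlapped. The means were 0.309 ± 0.0790 and 0.332 ± 0.146 (SD, n = 3 each). The pooled ratio of aminophylline to control was 0.998 (95% exact interval 0.694 to 1.44, counting error only). Bid shares 628 exon bases with Bcl2l13 on the opposite strand, which was at 2.03 to 4.67 FPKM. Bbc3, the second p53 family target named above, had 1 read in control 3, 2 reads in aminophylline 2 and 0 in the other 4 libraries. With 3 reads as the floor, levels of Bbc3 up to 0.0223 to 0.0531 FPKM could have gone unseen, depending on the library. These floors use the length of 4005 bases behind its FPKM. With the 2124 bases of its GENCODE exons they would be higher by a factor of 1.89.

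**Figure D3:**
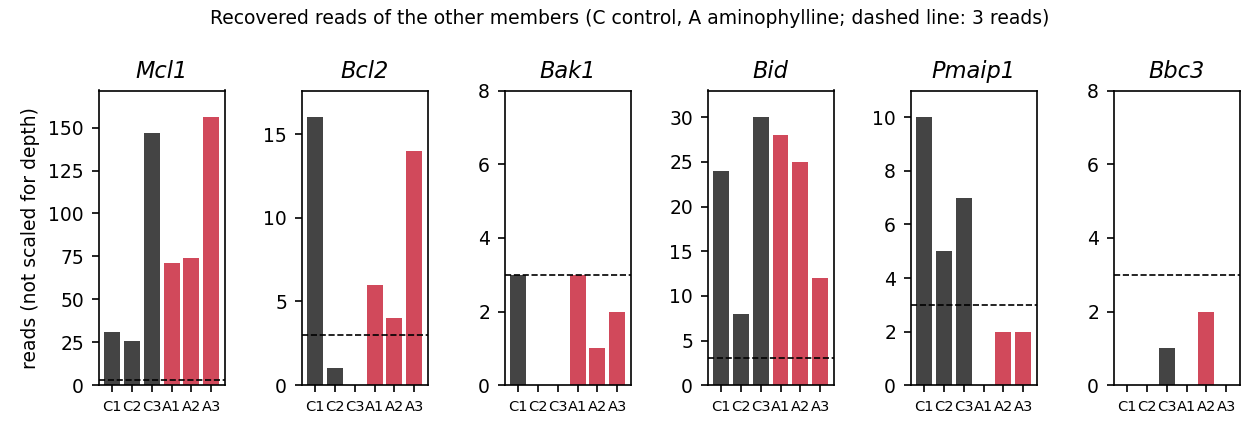
Recovered reads (linear axis from 0, not scaled for depth, a separate scale for each gene) of the 6 members that did not enter the test, for controls 1 to 3 (C1 to C3, grey) and aminophylline libraries 1 to 3 (A1 to A3, red), with the floor of 3 reads as a dashed line. Pmaip1 is over the floor in the 3 controls alone, Bcl2 reads come mostly from C1 and A3, and Bak1 and Bbc3 never exceed the floor.

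To compare the arms of the family, the FPKM of the 4 pro-survival members and of the 6 pro-death members (effectors and BH3-only genes) were each summed in every library. The ratio of pro-survival to pro-death was 614, 584 and 434 in controls 1 to 3 and 703, 543 and 722 in aminophylline libraries 1 to 3. The groups overlapped, because aminophylline 2 was below controls 1 and 2. The mean log2 ratio was 9.07 ± 0.27 in control and 9.35 ± 0.23 in aminophylline oocytes (SD, n = 3 each), a difference of 0.28 that was close to the SD within each group, was 0.37 without control 1, and was positive in 2 of 3 same-numbered pairs. Bcl2l10 made up nearly all of the pro-survival sum and Bax most of the pro-death sum, at a share that varied between libraries. With Bax and Bak1 alone as the pro-death arm, the ratio was 804, 654 and 490 in controls 1 to 3. In aminophylline libraries 1 to 3 it was then 921, 664 and 1003, again with overlap. The difference in mean log2 ratio was 0.42, and 0.195, 0.021 and 1.033 in the same-numbered pairs. No p is given for the sums, which are scores over chosen members.

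Without Bcl2l10, the pro-survival sum was of the same order as the pro-death sum. The ratio was 0.484, 0.516 and 1.35 in controls 1 to 3 and 0.748, 0.979 and 1.46 in aminophylline libraries 1 to 3. The ranges overlapped, with control 3 above aminophylline libraries 1 and 2, while in 3 of 3 same-numbered pairs the aminophylline library had the higher ratio, by 0.63, 0.92 and 0.12 on the log2 scale. The mean log2 ratio was -0.53 ± 0.83 in control and 0.03 ± 0.49 in aminophylline oocytes, a difference of 0.56, less than the SD of the controls. The level of the ratio rests on the lengths and on the genes summed. With GENCODE lengths it was above 1 in 5 of 6 libraries (0.986 to 3.09), in place of 2 of 6, and with the BH3-only gene Bik added to the pro-death arm in 0 of 6 (0.172 to 0.565). The ratio of Bcl2l1 to Bax alone, a pair chosen after its values were seen, was 0.614, 0.558 and 1.46 in controls and 0.943, 1.16 and 1.93 in aminophylline libraries, which is again an overlap, with the aminophylline library higher in 3 of 3 same-numbered pairs. The ratio of Bcl2l1 to Bad was lower after aminophylline, with mean log2 values of 2.728 in control and 2.346 in aminophylline oocytes. The groups overlapped, and the difference of -0.382 was smaller in size than the SD of the controls, 1.471. In the same-numbered pairs this log2 ratio differed by 0.612, 0.036 and -1.793, higher after aminophylline in 2 of 3. The difference between the arms in mean log2 value was 0.15 higher in aminophylline oocytes, and higher in 3 of 3 pairs. Taken singly, the pro-survival member Mcl1 was higher in 3 of 3 pairs, and Bcl2l10, Bcl2l1 and Bcl2 each in 2. Of the pro-death members, Bad and Bak1 were higher in 3 pairs, Bid in 2, Bax and Bbc3 in 1 and Pmaip1 in 0. Bak1 and Bbc3 never exceeded the floor of 3 reads. The pairs rest on the label numbers alone, and the share of all genes with such pair counts was not computed.

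**Figure D4:**
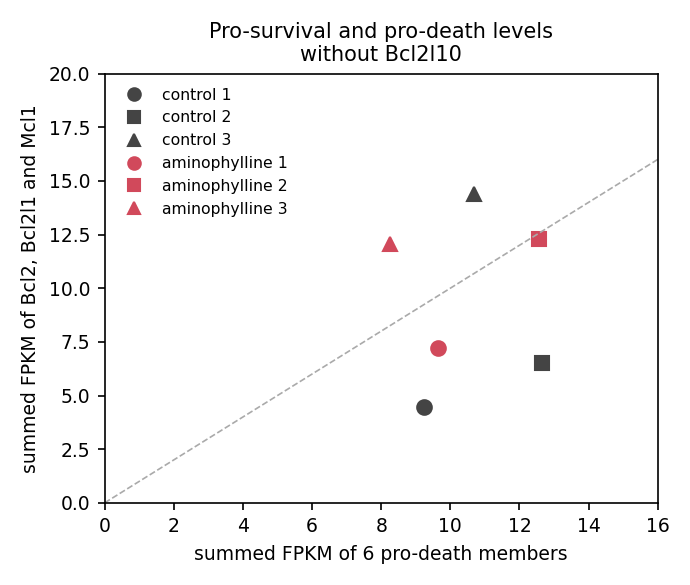
Summed FPKM of Bcl2, Bcl2l1 and Mcl1 (vertical axis) against the summed FPKM of the 6 pro-death members (horizontal axis) in each library, with control in grey, aminophylline in red, and a dashed line where the sums are equal. Control 3 and aminophylline 3 lie above the line, aminophylline 2 lies almost on it (ratio 0.979), and the other 3 libraries lie below it.

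The genes whose pattern over the 6 libraries was nearest to Bcl2l10, by the root mean square distance of centred log2(FPKM + 1) values, were Psmb6 (0.0254), Ahnak (0.0269) and Fam162a (0.0288), where the SD of Bcl2l10 itself was 0.243. For Bcl2l1, which varied more (SD 0.580), they were Ralgds (0.0960), Rela (0.0975) and Acox3 (0.0977). Ahnak was low, at 0.579 to 1.41 FPKM, where the added 1 in log2(FPKM + 1) shrinks differences, so its nearness is partly one of scale. These distances describe 6 libraries that also differ in depth.

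The partners of the family were read from 7 lists of 66 other genes, of which 46 entered the test. An unadjusted limma p under 0.05 was found for 4 of the 46 (8.70%, against 7.25% of all tested genes), all 4 lower after aminophylline (against 2.84%), and 0 passed at an adjusted p under 0.05. The median log2 fold change of the 46 was -0.03, against 0.0954 over all tested genes. Groups without overlap were seen for 3 of the 46 (6.52%, against 12.5%), namely Ywhaq and Tmbim6, which were lower, and Trim17, which was higher.

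Among 15 further family genes, 6 were tested and Bnip3, which encodes a mitochondrial protein of hypoxia and mitophagy, had the one unadjusted p under 0.05. Its FPKM was 89.4, 40.4 and 60.7 in controls 1 to 3 and 38.2, 33.8 and 40.8 in aminophylline libraries (log2 fold change -0.67, limma adjusted p = 0.682). Control 1 was the highest, and control 2 lay within the aminophylline range. Its relative Bnip3l was the most abundant gene of this list, at 69.5 to 78.7 FPKM. The BH3-only gene Bik was at 14.7 to 18.9 FPKM, above Bax and Bad in every library, and Bcl2l11 (BIM) was at 0.384 to 0.858. The Bcl2a1 genes, near-identical copies among which reads may be split, were highest in control 1, where Bcl2a1b was at 3.38 against 0 to 0.649 elsewhere.

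Downstream of the pores, Cycs, the gene of cytochrome c, was at 149 to 249 FPKM, and 0 of 5 tested genes of the apoptosome and the caspases had an unadjusted limma p under 0.05. Casp8 was the most abundant caspase of the list at 29.8 to 56.3 FPKM, whereas Casp9 was at 0.396 to 1.23. Of 8 tested genes of released factors and caspase inhibitors, 0 had an unadjusted limma p under 0.05. Birc5 (survivin, which also serves at the centromere) led this list at 442 to 530 FPKM. At the mitochondrial outer membrane, Vdac3 was at 365 to 499 and Vdac2, the channel that holds BAK, at 273 to 370, and 0 of 5 tested genes passed the same threshold. Of the 3 tested genes of MCL1 turnover, led by the deubiquitinase gene Usp9x at 2.36 to 4.38 FPKM, 0 did so.

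The list of BAD kinases, phosphatases and 14-3-3 proteins had 14 tested genes. The 14-3-3 gene Ywhaq was its most abundant member, at 203, 178 and 203 FPKM in controls 1 to 3 and 152, 138 and 154 in aminophylline libraries (log2 fold change -0.39, limma adjusted p = 0.682). All of its aminophylline values were below all controls. Ywhae was at 109, 60.9 and 99.3 FPKM in controls and 55.8, 55.5 and 65.9 in aminophylline libraries (log2 fold change -0.56, limma adjusted p = 0.682), with control 2 inside the aminophylline range. Among the other 14-3-3 genes, Ywhag had a log2 fold change of 0.54 (SE 0.32). Of the kinases that phosphorylate BAD, Akt1 had a log2 fold change of 0.43 (SE 0.32) and Prkaca -0.01 (SE 0.29).

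In the p53 family and its regulators, 5 genes were tested, with a median log2 fold change of -0.18. Mdm4, an inhibitor of p53, was the most abundant at 453, 290 and 434 FPKM in controls 1 to 3 and 265, 271 and 301 in aminophylline libraries (log2 fold change -0.47, limma adjusted p = 0.682). As for Bnip3 and Ywhae, control 2 lay within the range of the aminophylline libraries. Trp63, the oocyte member of the family, was at 1.92 to 3.13 FPKM in control and 1.77 to 2.42 in aminophylline oocytes, with overlap between the groups. Without control 1, the number of genes of these lists with an unadjusted limma p under 0.05 was 1 in place of 4, and the share of all tested genes was 3.57% in place of 7.25%.

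**Figure D5:**
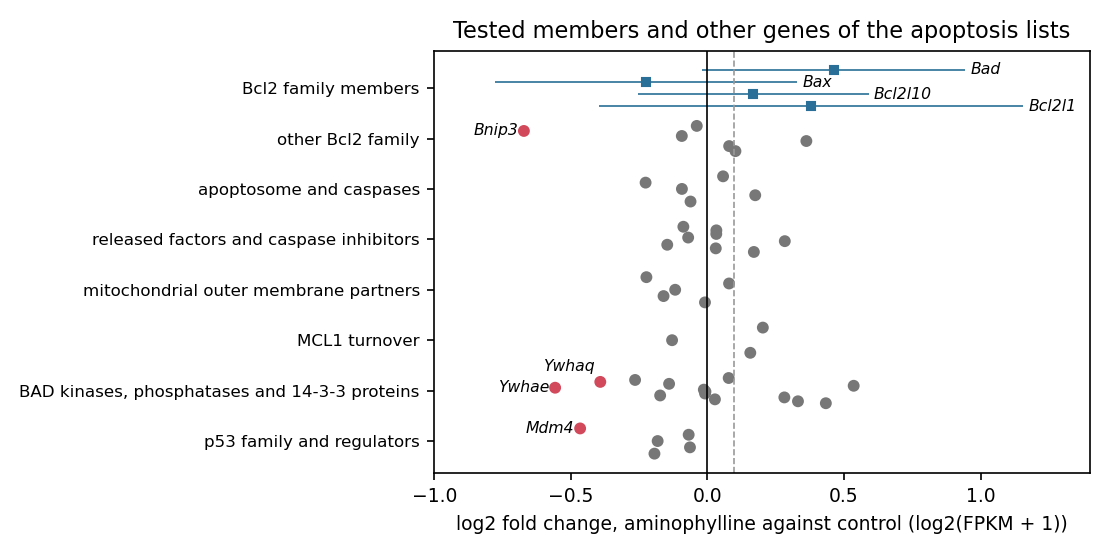
log2 fold change (aminophylline against control, on log2(FPKM + 1)) of the 4 tested members with 95% intervals (blue) and of the 46 tested genes of 7 other lists (points, red and named where the unadjusted limma p was under 0.05). The dashed line is the median of all tested genes, 0.0954. The intervals of all 4 members include 0, and the 4 named genes, Bnip3, Ywhae, Ywhaq and Mdm4, lie at -0.39 or lower.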

How the data were processed

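The authors deposited FPKM values per gene for the 6 libraries, and groups were taken from the labels. The submitters' processing notes name the builds GRCm38 and mm10. The aligner, the annotation and the strand of counting are not given in the sources used here. Nothing states that libraries came from separate cultures or animals, so p-values measure the spread between these libraries, which may be technical.

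Reads were recovered as whole numbers for 99.987% of 22583 genes. Whole numbers were the condition for a recovery, so the 100% of values within 0.01 of a whole read is no check of it. The smallest length that gave whole reads was taken, so a factor common to all reads of a gene would be lost. FPKM were tested as log2(FPKM + 1) with limma 3.58.1 (R 4.3.3, trended variance, two-sided, no block), where FPKM was at least 1 in at least 3 of 6 libraries, with Benjamini-Hochberg adjustment over 10340 genes. Fold changes on this scale understate those of low genes. The study's test, an unpaired t-test, was run as the unmoderated linear model among the alternatives. The code was tested on simulated data.

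The members and lists were chosen with earlier results of these data known. The named genes were all members, list genes with p under 0.05, and the most abundant gene of each list, and others named were chosen after their values were seen. Deviations of same-numbered libraries, by the numbers in the labels, correlated at 0.138, 0.140 and 0.552. Between differently numbered libraries the correlations were -0.547 to 0.423, and of the same-numbered pairs only number 3 lay above that range. The replicate block was fitted as the paired alternative because all same-numbered correlations were over 0.1. Whether same-numbered libraries share animals or a preparation is not stated in the sources used here. Positions were taken from GENCODE M21 and RefSeq GRCm38.p6. Figures were drawn with matplotlib 3.10.9 in Python 3.11.15.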

Additional observations from a re-analysis of the deposited data

How the results depend on the processing

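An adjusted limma p under 0.05 was found for 0 members in all 16 alternatives. An unadjusted p under 0.05, found for 0 members in the test as reported, was found for 1 without the filter on low values (Pmaip1), with the replicate block (Bad) and with library weights (Bcl2l1, limma adjusted p = 0.221), and for 0 to 1 when each library was left out in turn (Bad without control 1, Bcl2l10 without control 2, Bcl2l1 without control 3). The shares of all genes under 0.05 were 5.48% without the filter, 14.2% with the block, 19.4% with library weights and 3.18% to 15.6% with a library left out. The block changed the call of no other member, and 5 genes of the other lists were under 0.05 with it in place of 4. The log2 fold change of Bax was 0.069 with library weights and -0.42 to -0.06 with a library left out. That of Bcl2l1 was 0.06 to 0.80, that of Bcl2l10 0.01 to 0.34 and that of Bad 0.32 to 0.66 with a library left out. The number of tested members without overlap between the groups, 1 of 4 as reported, was 0 after rescaling to a common sum, quantile normalization or median centring, and 1 to 2 with a library left out. The 4 genes of the other lists with an unadjusted p under 0.05 became 1 without the filter, 2 in the unmoderated model, 8 with library weights and 0 to 5 with a library left out. The difference in the log2 ratio of the arms, 0.28, was 0.56 without Bcl2l10 (0.58 with GENCODE lengths and 0.43 with Bik). It was 0.42 with Bax and Bak1 alone as the pro-death arm, 0.15 as a mean of log2 values, and 0.12 to 0.41 with a library left out. Over all tested genes, 750 had an unadjusted p under 0.05, compared with 761 by voom on the recovered reads, 1467 with the block and 2011 with library weights, and the block was the one alternative with adjusted calls (47). The cause of these shifts was not tested. The alternatives on single ratios of means (Mcl1, Bid, Pmaip1 and Bcl2), on gene length and on Bik in the pro-death arm were chosen after seeing the data, and the log2 ratio of Pmaip1 was -3.15 to -1.99 with a library left out. Depth limits the 6 members that did not enter the test, and floors and counting intervals cover counting error only.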
